A study of Homo sapiens with 36 samples.

Results

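Aminoacyl-tRNA synthetases join each amino acid to its own tRNA. The 36 synthetase genes described here were listed by symbol, but with earlier results of these data known. They came out of 59041 genes to which the reads of the whole series were assigned. They comprised 19 cytosolic enzymes (suffix 1, with FARSA and FARSB), 16 mitochondrial enzymes (suffix 2) and TARS3, whose symbol fits neither group and which was kept apart. Levels were measured by RNA sequencing in 3 human acute myeloid leukemia (AML) cell lines named HL60, MOLM13 and OCIAML3. Each line was treated for 24 h with 0.1 µM cytarabine, with 0.02 µM daunorubicin, with both drugs together at the same doses (the combination), or with the solvent DMSO. Each of the 12 groups held 3 libraries labelled as biological replicates, and each treatment was compared with DMSO within its line. The sources do not say whether replicates came from separate cultures or days, so a p-value here covers only how far these libraries differ, which may be technical. Cytarabine is a cytidine analogue that is built into DNA and stops its synthesis, whereas daunorubicin, an anthracycline, inserts itself between DNA bases and traps topoisomerase on DNA.

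In human cells most amino acids have a pair of synthetases, both encoded in the nucleus, of which one charges cytosolic tRNAs and the other is imported to charge the tRNAs that mitochondria make for themselves. Glycyl- and lysyl-tRNA synthetase (GARS1 and KARS1) are exceptions, since each of these genes makes the enzyme of both compartments. QARS1 charges glutamine in the cytosol, whereas mitochondria first charge glutamate onto the glutamine tRNA through EARS2 and then amidate it. Several cytosolic enzymes, among them EPRS1, IARS1, LARS1, MARS1, QARS1, RARS1 and KARS1, sit together in a multi-synthetase complex, while FARSA and FARSB are the subunits of phenylalanyl-tRNA synthetase. Many cytosolic synthetase genes are known targets of ATF4, a transcription factor of the amino acid response, and WARS1 is known for its induction by interferon.

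The depth of the libraries was 25067734 to 47322144 estimated counts over all transcripts, of which 3.99 to 4.52% lay on transcripts matched to no gene. In OCIAML3 the libraries labelled cytarabine replicate 3 and combination replicate 3 were set apart, since they differed from their groups over the synthetases. The median log2 change of the cytosolic enzymes from the DMSO mean was -0.14 in the first of them, against 0.04 and -0.01 in the other OCIAML3 cytarabine libraries, and -0.01 in the second, against -0.33 and -0.24 in the other combination libraries. Over all genes tested, library pairs were compared by a chi-square per gene, which grows as their counts differ more. It was 178 and 113 for pairs with combination replicate 3, against 27.2 for the other pair of that group. Pairs with cytarabine replicate 3 gave 18.1 and 18.4, against 6.61 for the other pair. HL60 DMSO pairs gave 15.2 to 29.7, so cytarabine replicate 3 was not unusual by that measure. Myeloid markers were expressed in all groups, with 1202 to 6196 counts-per-million (CPM) summed over 9 genes, and 1 of the 9 was at 0 in every library. In HL60 this sum was 1628 to 2118 CPM after cytarabine, 3375 to 4990 CPM after daunorubicin and 1202 to 1449 CPM after the combination, against 4030 to 4877 CPM with DMSO. The sum of 3 B cell markers in HL60 was 8.48 to 9.58 CPM after cytarabine, 4.23 to 8.16 CPM after daunorubicin and 9.25 to 11.6 CPM after the combination, against 2.03 to 2.37 CPM with DMSO. In MOLM13 the myeloid sum was 4457 to 4568 CPM after cytarabine, 4558 to 6196 CPM after daunorubicin and 5164 to 5445 CPM after the combination, against 3518 to 4726 CPM with DMSO, and the B cell sum 3.60 to 4.11, 1.51 to 3.56 and 1.88 to 2.61 CPM after the same treatments, against 1.58 to 1.62 CPM with DMSO. Whether these marker shifts had a part in the synthetase values was not tested, and in bulk samples fewer cells of a type and less RNA per cell cannot be told apart.

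Promoter sequence was taken from RefSeq (GRCh38.p14), from 250 bases before to 50 bases after each annotated start, and matched 16 of 19 cytosolic and 14 of 16 mitochondrial genes. The first stretches show cytosolic genes that hold TGATGNAA (N stands for any base), the C/EBP-ATF response element to which ATF4 binds, with the match in capitals. Each runs 5′ to 3′ on the strand of its gene, and the capitals there read as the reverse complement of the searched letters.
AARS1, chr16:70289507-70289706, minus strand: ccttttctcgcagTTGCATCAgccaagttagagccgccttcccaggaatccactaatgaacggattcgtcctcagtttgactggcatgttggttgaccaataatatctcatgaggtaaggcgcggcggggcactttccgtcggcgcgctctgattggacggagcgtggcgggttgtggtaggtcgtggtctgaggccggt
CARS1, chr11:3057418-3057483, minus strand: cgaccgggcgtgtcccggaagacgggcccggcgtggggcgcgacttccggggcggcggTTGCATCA
GARS1, chr7:30594818-30594877, plus strand: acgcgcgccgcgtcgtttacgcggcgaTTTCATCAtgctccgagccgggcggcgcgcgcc
IARS1, chr9:92293698-92293757, minus strand: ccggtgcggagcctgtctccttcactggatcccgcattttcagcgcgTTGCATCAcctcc
MARS1, chr12:57488008-57488071, plus strand: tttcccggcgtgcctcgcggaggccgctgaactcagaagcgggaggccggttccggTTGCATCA

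The element was found on either strand in 7 of 16 cytosolic genes (AARS1, CARS1, GARS1, IARS1, MARS1, NARS1 and TARS1) and in 1 of 14 mitochondrial genes (YARS2). Of all 27305 genes with RefSeq promoter windows, 1217 held it, or 4.46%. The following stretches are shown because WARS1, MARS2 and EARS2 stand out in the results. They lie before the 2 annotated starts of WARS1, where capitals mark the interferon-stimulated response element, and before the starts of MARS2 and EARS2, where capitals mark CACGTG, the E-box that MYC and related factors bind, and the palindromic site of NRF1, a regulator of nuclear genes for mitochondria.
WARS1 downstream start, chr14:100375348-100375437, minus strand: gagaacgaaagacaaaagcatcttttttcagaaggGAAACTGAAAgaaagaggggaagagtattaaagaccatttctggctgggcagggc
WARS1 upstream start, chr14:100376328-100376387, minus strand: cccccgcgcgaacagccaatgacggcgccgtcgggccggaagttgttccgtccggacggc
MARS2, chr2:197705309-197705368, plus strand: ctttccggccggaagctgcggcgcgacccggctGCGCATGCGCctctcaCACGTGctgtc
EARS2, chr16:23557351-23557410, minus strand: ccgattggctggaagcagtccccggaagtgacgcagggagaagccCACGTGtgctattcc

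The interferon-stimulated letters occurred in 1 of 16 cytosolic genes (WARS1) and 1 of 14 mitochondrial genes (EARS2), against 4.38% of all genes. The E-box occurred in 1 of 16 cytosolic genes (IARS1) and in 3 of 14 mitochondrial genes (CARS2, EARS2 and MARS2), against 8.77% of all genes, and the NRF1 letters in MARS2 alone among the 30 matched genes, against 1.52% of all genes. Both strands were searched for each motif, and a match describes the letters of a window only.

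In HL60 cells most synthetases of both compartments fell, and a small set rose. After cytarabine 23 of 36 members were lower and 4 were higher at a false discovery rate under 0.05 (edgeR quasi-likelihood test, Benjamini-Hochberg adjustment), against 22% of all 15608 genes tested called lower and 23.6% called higher. After the combination 24 were lower and 5 were higher, against 25.3% and 28.1% of all genes. The lower calls covered 13 of 19 cytosolic enzymes after either treatment, and 9 of 16 mitochondrial enzymes after cytarabine and 10 after the combination. TARS3, a threonyl-tRNA synthetase paralogue of low level, was at 3.94, 5.32 and 4.36 CPM after cytarabine and at 3.95, 3.75 and 4.50 CPM after the combination, against 7.52, 7.37 and 7.52 CPM with DMSO. The median log2 fold change of all 36 members was -0.45 after cytarabine and -0.62 after the combination, against 0.01 and 0.04 over all genes tested.

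**Figure D1:**
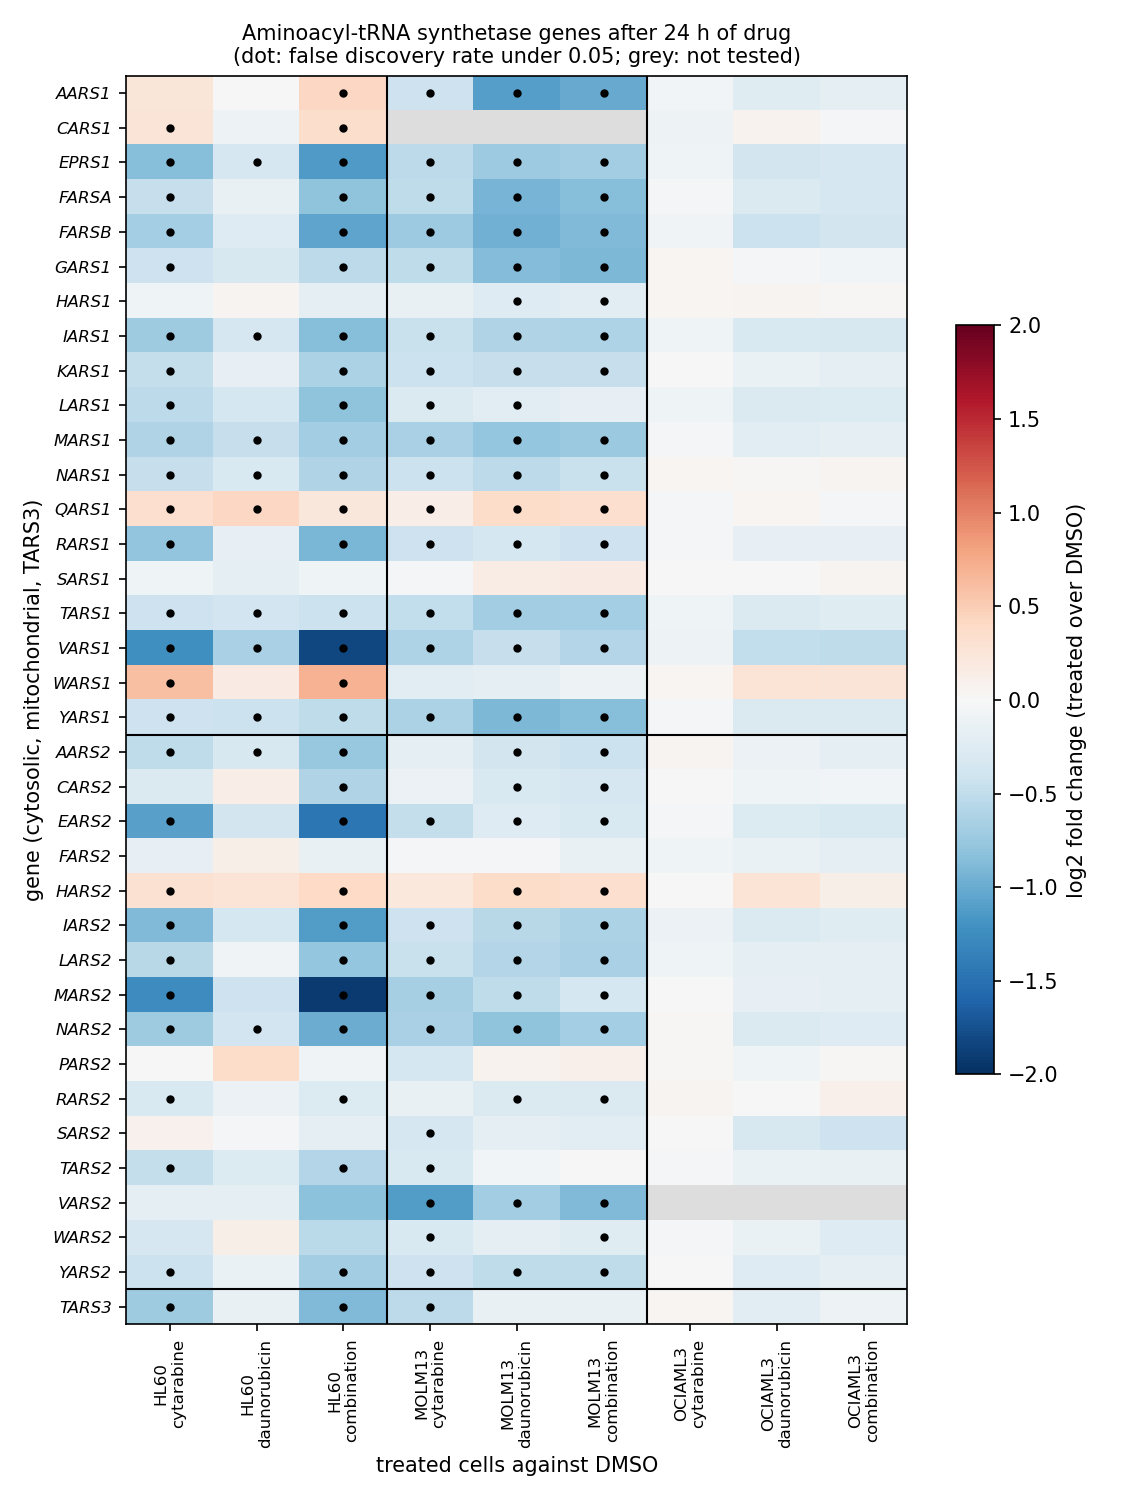
Heat map of the log2 fold change against DMSO, with genes in rows (cytosolic, mitochondrial, then TARS3) and the 3 treatments of each line in columns. Dots mark a false discovery rate under 0.05 and grey cells genes not tested. Most cells of HL60 and MOLM13 are blue (lower than DMSO), with QARS1 and HARS2 red in both lines and WARS1 red in HL60, and no OCIAML3 cell has a dot.

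VARS1, MARS2 and EARS2 fell most in HL60. VARS1, the cytosolic valyl-tRNA synthetase (chromosome 6, 31777518-31795752, minus strand, GRCh38), was at 128, 146 and 178 CPM after cytarabine and at 94.1, 87.9 and 119 CPM after the combination, against 332, 348 and 379.8 CPM with DMSO. All of these treated libraries lay far below all DMSO libraries. The log2 fold change was -1.23 ± 0.15 (SE) after cytarabine (adjusted p = 4.7e-05) and -1.82 ± 0.16 after the combination (adjusted p = 1.7e-06, n = 3 each), where it was left at 0.284 of the DMSO level.

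MARS2, the mitochondrial methionyl-tRNA synthetase (chromosome 2, 197705369-197708395, plus strand), was at 30.01, 42.0 and 45.3 CPM after cytarabine and at 23.3, 21.0 and 30.3 CPM after the combination, against 89.98, 89.9 and 101 CPM with DMSO. Every treated library lay well below every DMSO library. The log2 fold change was -1.26 ± 0.17 after cytarabine (adjusted p = 9.05e-05) and -1.91 ± 0.18 after the combination (adjusted p = 2.5e-06). EARS2, the mitochondrial glutamyl-tRNA synthetase (chromosome 16, 23520754-23557731, minus strand), was at 21.4, 24.4 and 24.7 CPM after cytarabine and at 17.5, 16.2 and 20.9 CPM after the combination, against 43.4, 53.9 and 51.7 CPM with DMSO, and the groups did not overlap. Its log2 fold change was -1.08 ± 0.14 after cytarabine and -1.45 ± 0.14 after the combination (adjusted p = 5.8e-05 and 3.7e-06). These were the 3 members that also passed a log2 fold change of 1 in size after cytarabine, where 3.12% of all genes did so in the lower direction. After the combination they were joined by EPRS1, IARS2 and FARSB, against 6.29% of all genes.

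Among the other enzymes that fell, those of the multi-synthetase complex included EPRS1, which charges both glutamate and proline. EPRS1 was at 209.9, 240.0 and 246 CPM after cytarabine and at 178, 185 and 208 CPM after the combination, against 425, 451 and 376 CPM with DMSO (log2 fold change -0.85 ± 0.11 and -1.13 ± 0.11). The treated and DMSO libraries did not overlap. The other complex members that fell after the combination were RARS1 (arginine, -0.91 ± 0.11), IARS1 (isoleucine, -0.85 ± 0.09), LARS1 (leucine, -0.81 ± 0.13), MARS1 (methionine, -0.69 ± 0.10) and KARS1 (lysine, -0.63 ± 0.11), on the log2 scale. All of them had also fallen after cytarabine, by 0.48 to 0.78. FARSB and FARSA, the subunits of phenylalanyl-tRNA synthetase, fell together, with log2 fold changes of -0.68 ± 0.14 and -0.46 ± 0.15 after cytarabine and of -1.06 ± 0.14 and -0.81 ± 0.15 after the combination. The cytarabine call of FARSA was lost without DMSO replicate 1 (adjusted p = 0.0524) or 3 (0.0706) and without cytarabine replicate 1 (0.065) or 2 (0.0934).

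GARS1, NARS1, TARS1 and YARS1, the cytosolic enzymes for glycine, asparagine, threonine and tyrosine, fell less. GARS1 was at 220.1, 213 and 242 CPM after cytarabine and at 211, 209 and 201 CPM after the combination, against 301, 315 and 279.5 CPM with DMSO (log2 fold change -0.41 ± 0.11 and -0.53 ± 0.11). The log2 fold changes of NARS1, TARS1 and YARS1 lay between -0.46 and -0.42 after cytarabine and between -0.60 and -0.42 after the combination. The combination call of TARS1 was lost with an offset for transcript length (-0.27, adjusted p = 0.0519). In all 4 genes every treated library was below every DMSO library. HARS1 and SARS1, which charge histidine and serine, did not pass the test after either treatment, and SARS1 stood at -0.09 ± 0.10 after both.

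Among mitochondrial enzymes IARS2, which charges isoleucine, was at 77.6, 99.8 and 86.1 CPM after cytarabine and at 70.2, 65.6 and 86.8 CPM after the combination, against 159.6, 171 and 154 CPM with DMSO. The groups were far apart (log2 fold change -0.88 ± 0.13 and -1.12 ± 0.13). NARS2, LARS2, AARS2, YARS2 and TARS2, for asparagine, leucine, alanine, tyrosine and threonine, also fell after both treatments, by 0.44 to 0.71 on the log2 scale after cytarabine and by 0.59 to 0.99 after the combination. RARS2, for arginine, fell by 0.31 and 0.27. Its call was lost without cytarabine replicate 1 in the first comparison (adjusted p = 0.055), and without DMSO replicate 2 (0.0627) or combination replicate 2 (0.0907) or with the length offset (0.0702) in the second. Without the low-count filter both were lost (0.136 and 0.15). CARS2, for cysteine, fell after the combination (-0.60 ± 0.12, adjusted p = 0.00082) and was at -0.28 ± 0.12 after cytarabine (adjusted p = 0.065). FARS2, PARS2, SARS2, WARS2 and VARS2 passed the test after neither drug treatment, and VARS2 was below 1 CPM in every HL60 library. About 48.2% of the exon bases of SARS2 are shared with another gene on the same strand, so its reads cannot be assigned with certainty.

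The exceptions in HL60 were WARS1, QARS1, HARS2, CARS1 and AARS1, of which the last passed only after the combination. WARS1, the cytosolic tryptophanyl-tRNA synthetase (chromosome 14, 100333790-100376805, minus strand), was at 272, 238 and 248 CPM after cytarabine and at 284, 306 and 226 CPM after the combination, against 178, 177 and 147 CPM with DMSO. All of these treated libraries were above all DMSO libraries. The log2 fold change was 0.59 ± 0.12 after cytarabine (adjusted p = 0.0013) and 0.70 ± 0.12 after the combination (adjusted p = 0.00028). WARS1 kept both calls under every alternative tried.

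QARS1 (chromosome 3, 49095932-49105130, minus strand) was at 297, 326 and 338 CPM after cytarabine, at 336, 352 and 321 CPM after daunorubicin and at 296, 310.1 and 282 CPM after the combination, against 267, 248 and 244 CPM with DMSO. It was higher in all treated libraries than in any DMSO library, with log2 fold changes of 0.34 ± 0.09, 0.41 ± 0.09 and 0.23 ± 0.09. These calls depended on how the length of the transcripts was handled. With an offset for the average length of the transcripts in each library, the log2 fold changes of QARS1 were 0.11, 0.25 and 0.13 (adjusted p = 0.44, 0.14 and 0.35). Its combination call was also lost when any of 6 libraries was left out, namely DMSO replicates 2 (adjusted p = 0.109) and 3 (0.13), daunorubicin replicates 1 (0.0521) and 2 (0.0518) and combination replicates 1 (0.0812) and 2 (0.117).

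HARS2, the mitochondrial histidyl-tRNA synthetase and the one mitochondrial enzyme called higher, was at 62.0, 63.2 and 61.7 CPM after cytarabine and at 68.7, 68.2 and 62.5 CPM after the combination, against 50.2, 50.01 and 51.6 CPM with DMSO. Its log2 fold change was 0.39 ± 0.10 after the combination (adjusted p = 0.0051) and 0.30 ± 0.10 after cytarabine (adjusted p = 0.027), and the cytarabine call was lost without any 1 of the 3 cytarabine or 3 DMSO libraries (adjusted p = 0.0572 to 0.0784). HARS2 shares 108 exon bases with HARS1 on the opposite strand, and reads of the 2 genes there cannot be told apart in unstranded libraries. CARS1, which charges cysteine, was at 80.2, 73.8 and 83.5 CPM after cytarabine and at 86.7, 89.4 and 75.7 CPM after the combination, against 66.7, 66.0 and 65.0 CPM with DMSO, with no overlap between groups. Its log2 fold change was 0.26 ± 0.09 and 0.35 ± 0.09. The cytarabine call of CARS1 was lost without DMSO replicate 1 (adjusted p = 0.0667), 2 (0.0815) or 3 (0.0944) and without cytarabine replicate 1 (0.0856) or 3 (0.115), with the length offset (0.0625) and with no low-count filter (0.0832). Fitting all 36 libraries together lost both calls (adjusted p = 0.253 after cytarabine and 0.118 with both drugs).

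AARS1, the alanyl-tRNA synthetase (chromosome 16, 70251983-70289707, minus strand), was at 295, 319 and 268 CPM after cytarabine and at 329.9, 384 and 282 CPM after the combination, against 239.9, 289.7 and 220.0 CPM with DMSO. The lowest combination library was below the highest DMSO library. Its log2 fold change was 0.41 ± 0.13 after the combination (adjusted p = 0.017) and 0.23 ± 0.13 after cytarabine (adjusted p = 0.16). The combination call was lost without DMSO replicate 1 (adjusted p = 0.0568) or 3 (0.0862) or combination replicate 2 (0.0881). With the replicate number as a block, which the HL60 libraries support because same-numbered ones deviated together, AARS1 passed after the combination (adjusted p = 0.00016) and after cytarabine (adjusted p = 0.0086). That fit also called CARS2 and WARS2 lower after cytarabine and HARS1 and WARS2 lower after the combination.

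**Figure D2:**
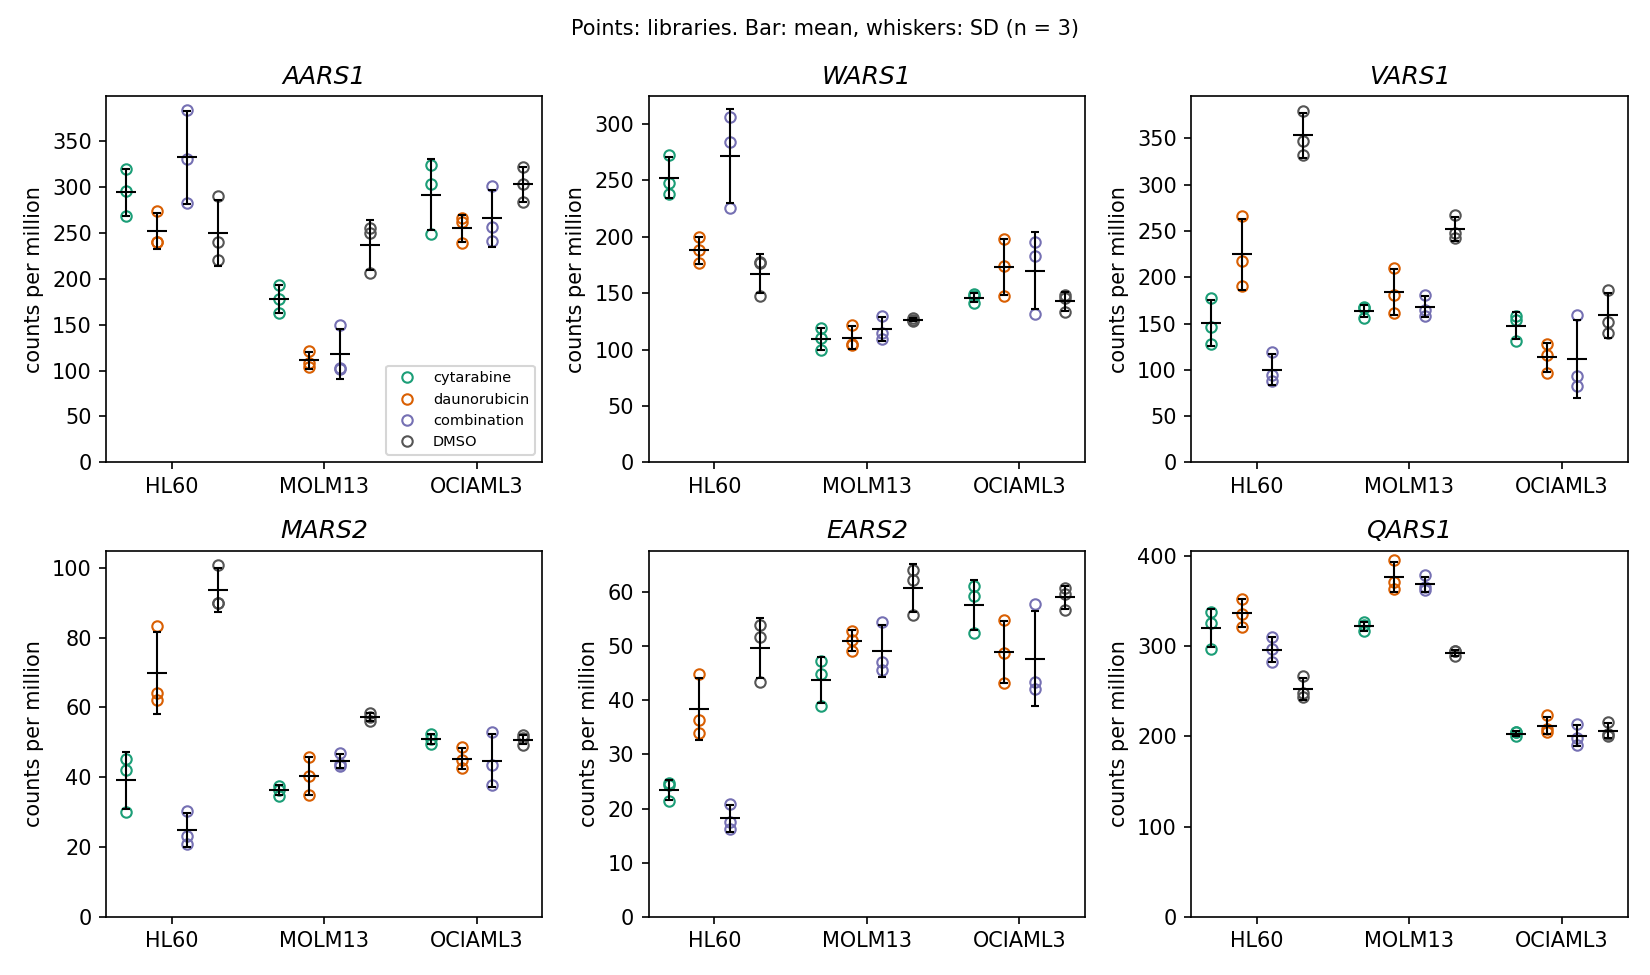
CPM of AARS1, WARS1, VARS1, MARS2, EARS2 and QARS1 in each library, by cell line and treatment (cytarabine, daunorubicin, combination, DMSO), with the mean of each group as a bar and the SD as whiskers (n = 3). VARS1, MARS2 and EARS2 are lowest after the combination in HL60, WARS1 is above DMSO in HL60 after cytarabine and the combination, and AARS1 is below DMSO in all treated MOLM13 libraries.

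Daunorubicin alone moved fewer synthetases in HL60. It lowered 9 members and raised 1 (QARS1), against 9.14% of all genes lower and 12.8% higher. VARS1 was at 217, 191 and 266 CPM after daunorubicin, against 332, 348 and 379.8 CPM with DMSO (log2 fold change -0.65 ± 0.15, adjusted p = 0.0094), with no overlap between the groups. This call was lost without daunorubicin replicate 2 (adjusted p = 0.053). MARS1, YARS1, TARS1, EPRS1, IARS1 and NARS1 among cytosolic enzymes, and NARS2 and AARS2 among mitochondrial ones, fell by 0.30 to 0.47. MARS2 was at 62.1, 64.2 and 83.3 CPM and EARS2 at 33.9, 36.4 and 44.8 CPM, with log2 fold changes of -0.42 ± 0.17 and -0.37 ± 0.14 that did not pass (adjusted p = 0.091 and 0.067). WARS1 was at 176, 188 and 200.1 CPM, above only some of the DMSO libraries (0.17 ± 0.12, adjusted p = 0.34).

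The count of members after daunorubicin was the least stable in HL60. Without daunorubicin replicate 2 it dropped to 2 members and without daunorubicin replicate 1 to 3, and it was 6 without DMSO replicate 1 or 2. With the replicate number as a block it was 19, of which 16 were lower and 3 higher, while the share of all genes called was also larger in that fit, at 18.3% lower and 19.3% higher. The members added by the block were FARSB, GARS1, LARS1, EARS2, IARS2, MARS2 and TARS2 on the lower side and HARS2 and PARS2 on the higher side, so that the direction of every call in either fit was the same.

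In MOLM13 cells most synthetases fell after each of the 3 treatments, and the enzymes that rose in HL60 did not all do so here. CARS1 had almost no assigned reads in this line and was not tested, which left 35 members. Cytarabine lowered 25 of them and raised 1, daunorubicin lowered 25 and raised 2, and the combination lowered 25 and raised 2. Over all 16184 genes tested, cytarabine gave 17.8% lower and 17.1% higher calls, daunorubicin 25.7% and 26.9%, and the combination 26% and 27%. The lower calls covered 14, 15 and 14 of 18 cytosolic enzymes and 10, 10 and 11 of 16 mitochondrial enzymes after cytarabine, daunorubicin and the combination.

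AARS1 fell most in MOLM13 after daunorubicin. It was at 177, 163 and 193 CPM after cytarabine, at 108, 104 and 121 CPM after daunorubicin and at 149.7, 102 and 102 CPM after the combination, against 249.8, 206 and 255 CPM with DMSO. Every treated library lay below every DMSO library. The log2 fold change was -0.41 ± 0.14 after cytarabine (adjusted p = 0.043), -1.09 ± 0.15 after daunorubicin (adjusted p = 9.8e-05) and -1.01 ± 0.15 after the combination (adjusted p = 0.00018). The cytarabine call of AARS1 was lost without any 1 of DMSO replicates 1 and 3 or of the 3 cytarabine and 3 daunorubicin libraries (adjusted p = 0.0553 to 0.13). AARS1 was the one member past a log2 fold change of 1 in size after daunorubicin and after the combination, where 5.71% and 5.61% of all genes were past both thresholds in the lower direction. In the combination comparison it no longer passed that size without DMSO replicate 1 or 3 or combination replicate 2 or 3, where the count was 0, and without combination replicate 1 the count was 5.

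The next largest falls after daunorubicin were those of FARSB (-0.96 ± 0.10), FARSA (-0.92 ± 0.14), YARS1 (-0.91 ± 0.08), GARS1 (-0.87 ± 0.08), the mitochondrial NARS2 (-0.81 ± 0.10) and MARS1 (-0.78 ± 0.07). GARS1 was at 130, 138 and 141 CPM after cytarabine, at 103, 110.1 and 103 CPM after daunorubicin and at 116, 104 and 91.3 CPM after the combination, against 200.4, 184 and 194 CPM with DMSO. All of its treated libraries were below all DMSO libraries (log2 fold change -0.50 ± 0.08, -0.87 ± 0.08 and -0.89 ± 0.08). KARS1 was at 179.9, 189 and 185 CPM, at 179, 183 and 180.2 CPM and at 194, 176 and 172 CPM after the same 3 treatments, against 255, 248 and 245 CPM with DMSO, and its log2 fold changes lay between -0.47 and -0.43 without overlap of the groups. VARS1 fell by 0.62, 0.45 and 0.58 after cytarabine, daunorubicin and the combination.

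Of the mitochondrial enzymes of MOLM13, NARS2 fell by 0.65, 0.81 and 0.68, LARS2 by 0.44, 0.58 and 0.65, IARS2 by 0.42, 0.55 and 0.64 and MARS2 by 0.66, 0.50 and 0.36 after cytarabine, daunorubicin and the combination. MARS2 was at 34.8, 36.3 and 37.6 CPM after cytarabine and at 43.8, 47.0 and 43.1 CPM after the combination, against 58.3, 56.1 and 57.1 CPM with DMSO. It was thus lower after cytarabine alone than after both drugs, with no overlap between these 2 groups. VARS2, the mitochondrial valyl enzyme, was at 14.3, 16.5 and 8.70 CPM after cytarabine, against 26.9, 26.6 and 33.0 CPM with DMSO, and its log2 fold change of -1.12 ± 0.21 was the one past both thresholds there (1.03% of all genes). Without cytarabine replicate 3 that count was 0. VARS2 shares 63.0% of its exon bases with another gene on the same strand. EARS2 fell by 0.47, 0.25 and 0.31, after cytarabine, daunorubicin and the combination. Its daunorubicin call was lost without DMSO replicate 1 or 3, cytarabine replicate 3 or any daunorubicin library (adjusted p = 0.0504 to 0.134), and its combination call without replicate 1 or 3 of DMSO or 2 or 3 of the combination (0.0532 to 0.064).

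QARS1 and HARS2 rose in MOLM13. QARS1 was at 323, 327 and 316 CPM after cytarabine, at 395, 364 and 371 CPM after daunorubicin and at 363, 365 and 378 CPM after the combination, against 295, 294 and 289 CPM with DMSO. No treated library was as low as a DMSO library (log2 fold change 0.14 ± 0.05, 0.36 ± 0.05 and 0.33 ± 0.05). The cytarabine call was lost without any 1 of the DMSO and cytarabine libraries or of replicates 2 and 3 of daunorubicin and of the combination (adjusted p = 0.0519 to 0.131). With the length offset the cytarabine value was 0.03 (adjusted p = 0.76), while the daunorubicin value of 0.32 (adjusted p = 0.0028) and the combination value of 0.26 (adjusted p = 0.0085) still passed. HARS2 rose by 0.36 ± 0.08 after daunorubicin and 0.34 ± 0.08 after the combination, and its cytarabine value of 0.21 ± 0.08 did not pass (adjusted p = 0.057). WARS1 was at 110.1, 99.4 and 119 CPM after cytarabine, at 104, 122 and 105 CPM after daunorubicin and at 130.0, 115 and 109.7 CPM after the combination, against 126, 125 and 128 CPM with DMSO, and it passed the test in none of the 3 comparisons (log2 fold change -0.21 to -0.10).

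In OCIAML3 no member and no gene passed the false discovery rate in any of the 3 comparisons (0% of 16650 genes). At an unadjusted p under 0.05, cytarabine passed 255 genes, daunorubicin 5086 and the combination 3873, among them 0, 13 and 11 of the 35 members tested. DESeq2 gave cytarabine 2 genes higher and 1 lower, daunorubicin 903 and 482, and both drugs 7 and 10. The 1 member among these was IARS2 after daunorubicin, which was at 220.1, 232 and 249.8 CPM after daunorubicin, against 295, 282 and 282 CPM with DMSO (log2 fold change -0.29, adjusted p = 0.031). After cytarabine no log2 fold change was larger than 0.11 in size, with standard errors of 0.05 to 0.22. VARS1 was at 96.9, 116 and 128 CPM after daunorubicin and at 82.2, 92.9 and 160 CPM after the combination, against 152, 186 and 140 CPM with DMSO. Only the library labelled combination replicate 3 overlapped DMSO here.

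Without the 2 OCIAML3 libraries named above, one of the cytarabine and one of the combination group, the same test called 16 members lower and 2 higher after daunorubicin and 23 lower and 2 higher after the combination, against 16% lower and 15.3% higher, and 21.6% lower and 20.1% higher, of all genes. It called none after cytarabine. The largest falls after the combination were then those of VARS1 (-0.86 ± 0.14, adjusted p = 0.0012), FARSB (-0.65 ± 0.11), SARS2 (-0.59 ± 0.10), EPRS1 (-0.56 ± 0.08) and IARS1 (-0.54 ± 0.07). HARS2 rose by 0.28 ± 0.05 after daunorubicin and 0.23 ± 0.06 after the combination, and WARS1 by 0.28 ± 0.09 and 0.41 ± 0.10 (adjusted p = 0.044 and 0.01). WARS1 was at 195, 183 and 131 CPM after the combination, the last of these being one of the libraries left out, against 149, 146 and 134 CPM with DMSO. The removal was chosen with these synthetase values known, so the calls without the 2 libraries describe the data and are no independent test. No library was relabelled.

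The median falls of cytosolic and mitochondrial enzymes were closer in HL60 than in MOLM13. In HL60 cytarabine gave a median log2 fold change of -0.46 for cytosolic and -0.39 for mitochondrial enzymes, daunorubicin of -0.26 and -0.12, and the combination of -0.60 and -0.64. In MOLM13 the medians were -0.44 and -0.34 with cytarabine, -0.56 and -0.30 with daunorubicin, and -0.60 and -0.32 with the combination. The medians of all genes tested lay between 0.00 and 0.07 in these comparisons. Per library, the cytosolic median minus the mitochondrial median was -0.35, -0.20 and -0.28 in daunorubicin-treated MOLM13 and -0.25, -0.24 and -0.29 with both drugs, against 0.01, -0.02 and 0.00 with DMSO. In HL60 it was -0.01, 0.22 and -0.04 after the combination, against 0.05, -0.02 and -0.08 with DMSO, so that the groups overlapped, but after daunorubicin it was -0.19, -0.11 and -0.11, below all DMSO libraries. These medians describe the listed members and were given no test.

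**Figure D3:**
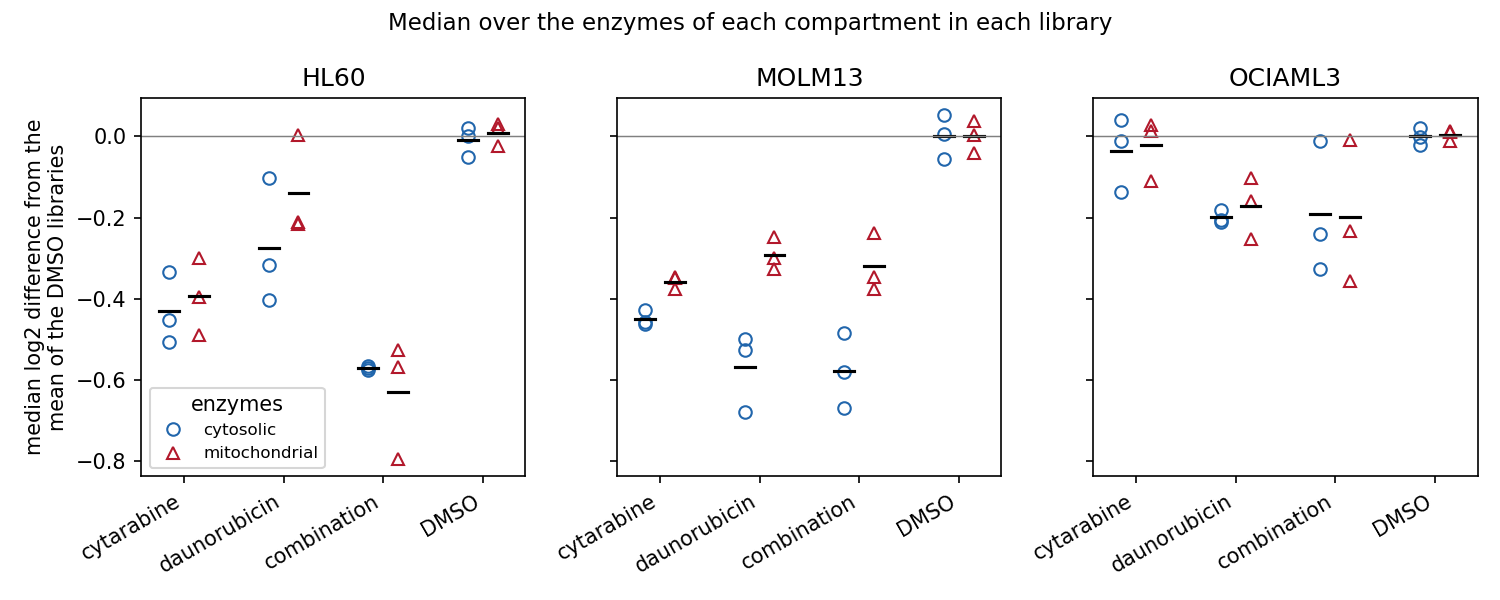
Median log2 change from the DMSO mean over the cytosolic and over the mitochondrial enzymes in each library, by cell line and treatment, with the mean of the libraries as a bar. In MOLM13 the cytosolic medians lie below the mitochondrial ones in all treated libraries, whereas in HL60 the medians of both classes overlap after the combination.

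Weighed by abundance the picture in HL60 differed. Summed TPM (transcripts-per-million), which correct for length, gave a ratio of cytosolic to mitochondrial enzymes of 5.53 ± 0.05 in cytarabine-treated, 4.75 ± 0.16 in daunorubicin-treated and 5.98 ± 0.70 in doubly treated HL60, against 5.01 ± 0.19 with DMSO (SD, n = 3 each). The lowest ratio after cytarabine was 5.48 and after the combination 5.54, against a highest ratio of 5.18 with DMSO. Summed cytosolic TPM in HL60 was 1949 ± 38, 1846 ± 91 and 1859 ± 99 after cytarabine, daunorubicin and the combination, against 2114 ± 142 with DMSO. Summed mitochondrial TPM was 352 ± 9, 389 ± 8 and 312 ± 19, against 422 ± 32. The TMM factors behind the fold changes were 0.887 to 0.923 with DMSO and 1.05 to 1.09 after cytarabine in HL60. The size of the falls thus depended on the scale. In MOLM13 the ratio was 4.19 ± 0.06, 4.07 ± 0.06 and 4.20 ± 0.07 after the same treatments, against 4.46 ± 0.05 with DMSO, and no treated library reached a DMSO library. In OCIAML3 it was 4.76 ± 0.13, 4.83 ± 0.23 and 4.80 ± 0.11, against 4.77 ± 0.08 with DMSO.

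The drug effects were then compared between HL60 and MOLM13 by the difference of their log2 fold changes, HL60 minus MOLM13, fitted over all 36 libraries. After cytarabine 2 members were higher and 1 lower in this difference, against 5.73% and 2.65% of all 19053 genes. With the replicate number as a block within each line these were 3 and 4, against 8.58% and 5.18%, the members added being QARS1 (0.25) on the higher side and MARS2 (-0.56), IARS2 (-0.42) and RARS1 (-0.33) on the lower side. After daunorubicin 14 were higher and 0 lower, against 13.9% and 6.69%, and after the combination 5 were higher and 8 lower, against 17.3% and 10.1%. With the replicate block the daunorubicin difference also passed for EPRS1 on the higher side (0.43, adjusted p = 0.041). In that fit SARS1 passed on the lower side (-0.30, adjusted p = 0.043). The block called 3359 of 19053 genes higher and 1833 lower there. AARS1 differed in all 3 comparisons, by 0.70 ± 0.20 with cytarabine, 1.16 ± 0.20 with daunorubicin and 1.5001 ± 0.20 with both drugs (adjusted p = 0.022, 0.00016 and 1.7e-06). WARS1 differed by 0.85 ± 0.18 after cytarabine and 0.88 ± 0.18 after the combination (adjusted p = 0.003 and 0.00051), being raised in HL60 and not in MOLM13.

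In the other direction, MARS2 (-1.47 ± 0.19), VARS1 (-1.15 ± 0.24) and EARS2 (-1.06 ± 0.17) fell further in HL60 than in MOLM13 after the combination (adjusted p = 1.2e-06, 0.00063 and 3.1e-05). LARS1, RARS1, IARS2, TARS2 and TARS3 were also lower in this difference, at -0.65 to -0.40, while GARS1, TARS1 and YARS1 differed by 0.34 to 0.45 the other way. After daunorubicin the 14 members with a positive difference included FARSA (0.83 ± 0.22), FARSB (0.75 ± 0.22) and GARS1 (0.61 ± 0.13) among cytosolic and LARS2 (0.56 ± 0.16) and CARS2 (0.50 ± 0.14) among mitochondrial enzymes. All 14 were lower in MOLM13, whereas 5 of them (MARS1, NARS1, TARS1, YARS1 and NARS2) were called lower in HL60. The AARS1 difference after cytarabine was lost without HL60 DMSO replicate 1 (adjusted p = 0.0503) or 3 (0.0768), HL60 cytarabine replicate 2 (0.0532), or MOLM13 DMSO replicate 1 (0.0576) or 3 (0.0642).

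**Figure D4:**
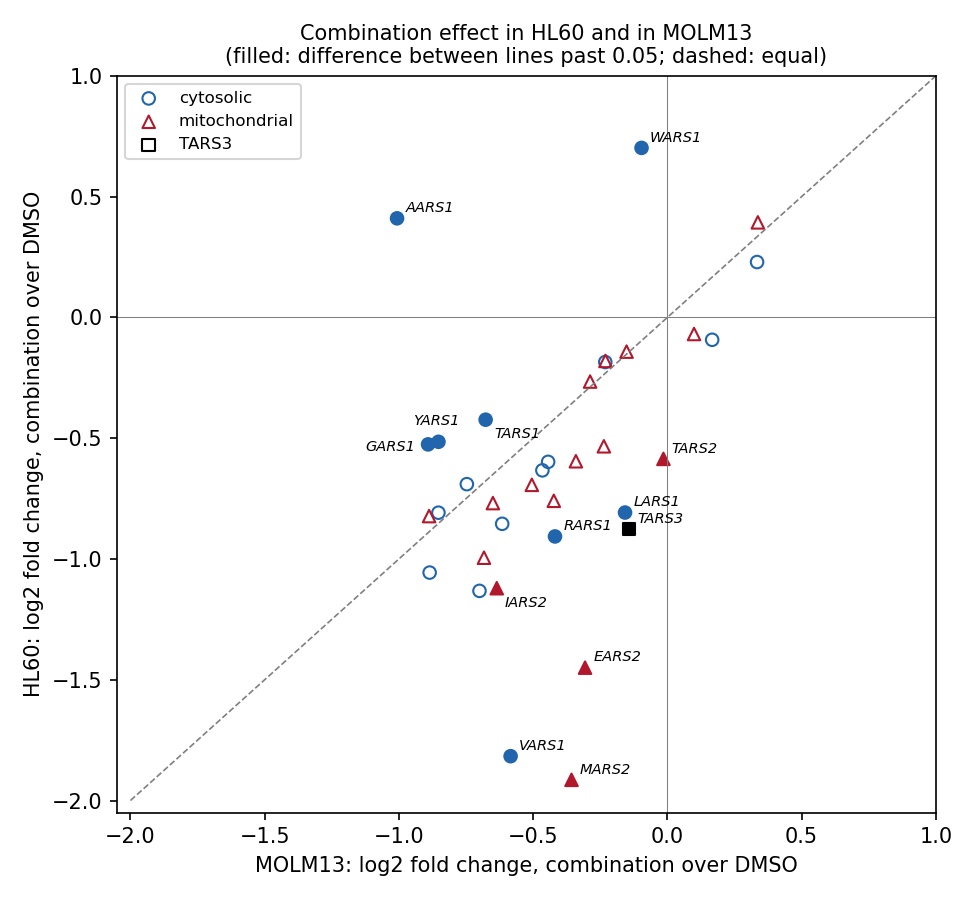
Log2 fold change of each synthetase after the combination in HL60 (vertical axis) against the same in MOLM13 (horizontal axis), with circles for cytosolic, triangles for mitochondrial enzymes and a square for TARS3, filled where the difference between lines passed the test. AARS1 and WARS1 lie far above the diagonal and MARS2, VARS1 and EARS2 far below it.

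Whether the drugs acted additively was tested as the log2 fold change of the combination minus the sum of the log2 fold changes of the single drugs. In HL60 only QARS1 passed (-0.52 ± 0.12, adjusted p = 0.027), against 5.14% of all genes in either direction, and this call was lost with the length offset (adjusted p = 0.49) and without replicate 1 or 2 of daunorubicin, 2 or 3 of cytarabine or 2 or 3 of DMSO (adjusted p = 0.0579 to 0.0844). With the replicate block, TARS1 (0.37, adjusted p = 0.0335) and CARS2 (-0.45, adjusted p = 0.03) passed as well, but that fit called 18% of all genes in either direction, so that its 3 members did not exceed the background. In MOLM13 19 of 35 members passed, all with a positive value, against 9.99% of all genes in that direction. They were 11 cytosolic and 8 mitochondrial enzymes, with VARS2 highest (0.94 ± 0.29, adjusted p = 0.046), followed by MARS2 (0.80 ± 0.13), FARSB (0.79 ± 0.14), NARS2 (0.77 ± 0.14), YARS1 (0.69 ± 0.12) and MARS1 (0.68 ± 0.10). The VARS2 call was lost with the length offset (adjusted p = 0.0534) and without any 1 of the 12 MOLM13 libraries except cytarabine replicate 2 (0.0515 to 0.107). In each of the other 5 genes the fall after both drugs was smaller than the sum of the falls after either drug alone. Fitted with all 36 libraries, 11 members passed.

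WARS1 was also read per transcript, since its 2 annotated starts lie in the printed stretches. WARS1-204 begins at the downstream start, whose printed stretch holds the interferon-stimulated letters, and WARS1-203 near the upstream start. In HL60 WARS1-204 was at 172, 124 and 139.9 CPM after cytarabine, at 85.7, 112 and 87.9 CPM after daunorubicin and at 159.6, 158 and 114 CPM after the combination, against 84.2, 72.5 and 39.3 CPM with DMSO. All treated libraries were above all DMSO libraries. WARS1-203 was at 46.6, 62.8 and 54.3 CPM after cytarabine and at 72.9, 76.7 and 59.9 CPM after the combination, against 65.2, 74.8 and 77.6 CPM with DMSO, and was not above DMSO as a group. In MOLM13 WARS1-204 was at 55.7, 38.6 and 56.7 CPM after cytarabine, at 46.0, 53.8 and 29.6 CPM after daunorubicin and at 47.8, 35.7 and 42.2 CPM after the combination, against 37.4, 36.6 and 47.9 CPM with DMSO, and each treatment overlapped DMSO. In OCIAML3 WARS1-204 was at 51.2, 50.7 and 70.7 CPM after cytarabine, at 103, 89.6 and 64.0 CPM after daunorubicin and at 109, 88.9 and 58.2 CPM after the combination, against 44.9, 58.7 and 61.0 CPM with DMSO. All daunorubicin libraries of OCIAML3 were above DMSO, while those of the other treatments overlapped it. The split of reads among transcripts of 1 gene is an estimate, so these values carry no test.

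**Figure D5:**
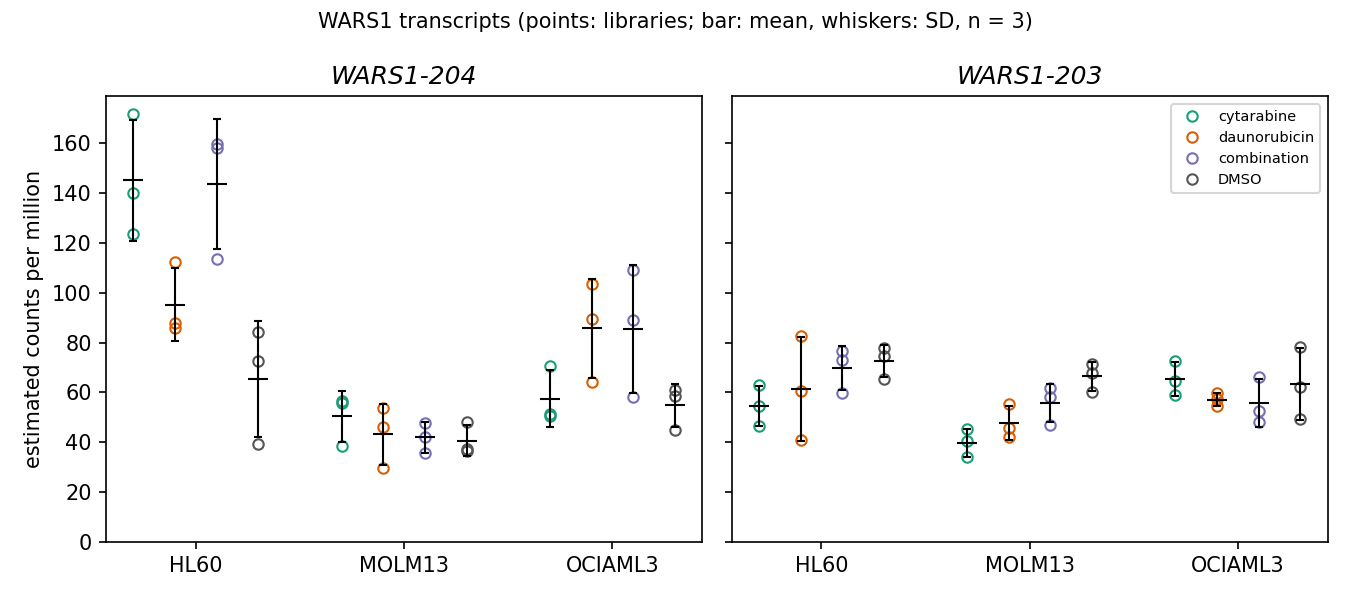
CPM of WARS1-204 and WARS1-203 in each library by cell line and treatment (cytarabine, daunorubicin, combination, DMSO), with the mean as a bar and the SD as whiskers (n = 3). WARS1-204 is higher in treated than in DMSO libraries of HL60, and WARS1-203 is not.

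At baseline the cytosolic enzymes were expressed well above the mitochondrial ones. With DMSO the median level over cytosolic enzymes was 97.8 TPM in HL60, 93.4 TPM in MOLM13 and 102 TPM in OCIAML3, and the median over mitochondrial enzymes 21.9, 23.1 and 20.8 TPM in the same lines. The highest cytosolic levels were those of NARS1 (195 ± 5 TPM) and QARS1 (191 ± 16 TPM) in HL60, whose libraries overlapped, of QARS1 (247 ± 11 TPM) in MOLM13, and of QARS1 (201 ± 17 TPM) and TARS1 (193 ± 8 TPM) in OCIAML3 (SD, n = 3). FARSB was among the lowest cytosolic genes, with 23.4 ± 0.7, 18.8 ± 1.3 and 19.8 ± 0.4 TPM, whereas its partner subunit FARSA was at 169 ± 11, 213 ± 10 and 148 ± 5 TPM. Of the mitochondrial enzymes CARS2 led in HL60 and MOLM13 (96.4 ± 5.5 and 77.4 ± 3.3 TPM) and IARS2 in OCIAML3 (112 ± 2 TPM), and PARS2, for proline, was at 3.7 ± 0.7, 3.9 ± 0.6 and 5.4 ± 0.6 TPM.

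The DMSO levels of 34 members were compared between lines, leaving out CARS1, whose reads could not be compared, and VARS2. The transcript CARS1-201 held 648 to 1238 reads in HL60, 307 to 580 in OCIAML3 and 0 in MOLM13, while 4 transcripts of the same length that matched no gene held 0 to 8 reads in HL60, 697 to 1548 in OCIAML3 and 613 to 955 in MOLM13. Whether those are copies of CARS1 was not tested. VARS2 was at 0.24 ± 0.06 TPM in HL60, 9.7 ± 1.1 TPM in MOLM13 and 0.06 ± 0.06 TPM in OCIAML3. For VARS2 no such shift was seen among unmatched transcripts of the same length, but a copy of another length would have been missed. Whether the low VARS2 values of HL60 and OCIAML3 reflect low expression was therefore not settled. The 1 unmatched transcript of the length of VARS2-213 held at most 3.3 reads in HL60, 36.6 in MOLM13 and 0 in OCIAML3. Of the 34, 16 were higher and 7 lower in HL60 than in MOLM13, against 22.7% and 30.3% of all genes. HL60 against OCIAML3 gave 21 higher and 3 lower, against 28.1% and 34.4%, and MOLM13 against OCIAML3 gave 14 higher and 6 lower, against 28.1% and 26.9%. Among them were CARS2, higher in HL60 than in OCIAML3 by 1.68 ± 0.10 on the log2 scale, and MARS1, higher in HL60 than in OCIAML3 by 1.15 ± 0.08. IARS2 was at -0.83 ± 0.10 for HL60 against OCIAML3 and at -0.73 ± 0.10 for MOLM13 against OCIAML3. These differences rest on TMM-scaled counts, and TPM set the cytosolic enzymes of HL60 and OCIAML3 closer together. The median fitted log2 difference of 18 cytosolic enzymes was 0.48 for HL60 against OCIAML3. The cytosolic median, with CARS1, was 97.8 TPM in HL60 and 102 TPM in OCIAML3. Summed cytosolic TPM was 2114 ± 142 in HL60 and 2017 ± 46 in OCIAML3 (SD, n = 3). The median of levels and the sum thus pointed in opposite ways in TPM, and neither is the same measure as the median of fitted differences. The size of the difference depended on the scale.

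Genes around the synthetases were read from lists chosen with earlier results known. The shares of all genes called lower, against which these lists are read, were 22% and 25.3% in HL60 after cytarabine and the combination, and 17.8%, 25.7% and 26% in MOLM13 after cytarabine, daunorubicin and the combination. The scaffold proteins of the multi-synthetase complex, AIMP1, AIMP2 and EEF1E1, all fell in HL60 after cytarabine and after the combination, EEF1E1 by 0.75 and 1.04 and AIMP2 by 0.70 and 1.03. In MOLM13 all 3 fell after cytarabine, and AIMP2 and EEF1E1 fell after daunorubicin (by 0.76 and 1.27) and the combination (by 0.72 and 1.24). GATB, GATC and QRSL1, the subunits that amidate the tRNA charged by EARS2, fell in HL60 after cytarabine and, with MTFMT, the formylase of methionyl-tRNA, after the combination. Of 11 genes of mitochondrial tRNA maturation, 6 were lower in HL60 after cytarabine and 7 after the combination, led by PNPT1, TRMT10C and ELAC2, and 8, 8 and 9 in MOLM13 after cytarabine, daunorubicin and the combination. Of the tested genes of RNA polymerase III, which transcribes cytosolic tRNAs, 11 of 17 were lower in HL60 after cytarabine and after the combination, with POLR3G at -1.57 and -2.50. In MOLM13 11, 13 and 13 of 18 were lower.

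The 30 amino acid and integrated stress response genes analysed here held both higher and lower calls in each line. In HL60, cytarabine gave 13 of 29 tested genes higher and 7 lower (23.6% and 22% of all genes), daunorubicin 1 and 6 (12.8% and 9.14%), and the combination 14 and 9 (28.1% and 25.3%). The lower calls after cytarabine were thus close to the background. DDIT3 and ATF3, stress-induced transcription factors, rose by 2.42 and 4.82 after cytarabine, whereas the mRNA of ATF4 fell by 0.75. ASNS, which makes asparagine and is a standard ATF4 target, was at -0.15 after cytarabine and -0.03 after the combination and did not pass. In MOLM13, cytarabine gave 6 of 30 higher and 12 lower (17.1% and 17.8% of all genes), daunorubicin 7 and 20 (26.9% and 25.7%), and the combination 4 and 18 (27% and 26%), with the higher calls near or below the background. In the difference HL60 minus MOLM13, 9 of the 30 were higher and 0 lower with cytarabine (5.73% and 2.65% of all genes), 17 and 1 with daunorubicin (13.9% and 6.69%), and 20 and 2 with both drugs (17.3% and 10.1%). Within MOLM13, ASNS fell by 0.65, 1.38 and 1.18 after cytarabine, daunorubicin and the combination. PHGDH and PSAT1, enzymes of serine synthesis, fell in MOLM13 after daunorubicin by 2.70 and 1.49. MARS1 shares 355 exon bases with DDIT3 on the opposite strand, and reads there cannot be told apart by strand.

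Among interferon-inducible genes, the group to which WARS1 belongs, cytarabine raised 9 of 15 tested in HL60, daunorubicin 4 and the combination 8, against 23.6%, 12.8% and 28.1% of all genes, and none was lower. GBP2, a guanylate-binding protein, rose by 4.40 and 4.80 on the log2 scale after cytarabine and the combination, and IRF1, an interferon regulatory factor, by 0.95 and 1.31. In MOLM13, 7, 8 and 9 of 14 were higher and none lower after cytarabine, daunorubicin and the combination (17.1%, 26.9% and 27% of all genes higher), although WARS1 did not pass there. IRF1 did not pass in MOLM13 either (-0.09, 0.06 and 0.11). Of 9 mitochondrial translation factors, cytarabine lowered 7, daunorubicin 3 and the combination 8 in HL60, and the same treatments 7, 3 and 4 in MOLM13, and none was higher. Of the 4 genes of cytosolic elongation analysed here (EEF1A1, EEF1G, EEF2 and its kinase EEF2K), 0, 0 and 2 were lower and none higher in HL60 after the same treatments, and 0, 3 and 3 were higher and none lower in MOLM13. Those 3 included EEF1A1 (0.68 and 0.65 after daunorubicin and the combination) and EEF2 (0.64 and 0.60).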

How the data were processed

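Total RNA of 36 libraries was sequenced without strand information. Per the labels and methods, the authors ran FastQC 0.11.9 and quantified reads with Salmon 1.8.0 against the Ensembl GRCh38 transcriptome with the genome as decoy. The Ensembl release is not given in the sources used here. The deposited files hold estimated counts, TPM and effective lengths per transcript, as the authors' Salmon run gave them, with 1 library per file. Here the estimated counts were summed per gene through GENCODE 44, leaving out 3.99 to 4.52% of counts on unmatched transcripts, and rounded. TPM was summed in the same way. The libraries held 25067734 to 47322144 counts before unmatched transcripts were left out, and errors cover the spread between libraries only.

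Each line was fitted by edgeR 4.0.16 (R 4.3.3) with filterByExpr, TMM factors and the quasi-likelihood test, and p-values were adjusted by Benjamini-Hochberg over all genes tested. A member was called at an adjusted p under 0.05, and a second threshold added a log2 fold change over 1 in size. CPM values are TMM-scaled, and errors of log2 fold changes are standard errors. Differences between lines and DMSO levels came from 1 fit of all 36 libraries. The fit was also run on counts simulated from its own means and spread, without pairing of replicates. Such a run checks the code and not how well the fit suits these data. The main fits of all lines held the group only, without a replicate block, so the main HL60 values do not use any pairing. Replicate numbers appeared to pair HL60 libraries, as all 18 same-number correlations of deviations from group means exceeded 0.1 (0.105 to 0.382). The block was therefore fitted as an alternative. Only 4 of 18 such correlations exceeded 0.1 in MOLM13 (-0.01 to 0.39) and 6 of 18 in OCIAML3 (-0.28 to 0.48). By this cut alone these lines were not taken as paired, so a pairing in them is not excluded. The alternatives were RLE normalization, no or a stricter low-count filter, a transcript length offset, the replicate block, DESeq2 1.42.0, a single fit of all libraries, and leaving out each library.

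Members, lists and motifs were chosen with earlier results of these data known. Values were given for members past the threshold, for TARS3, KARS1, GARS1 and WARS1 in any case, and for genes of the lists. Members described further by their values were chosen after these were seen.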

Additional observations from a re-analysis of the deposited data

Results flagged for a closer look

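For 30 results the drug effect differed between HL60 and MOLM13 by a test of the difference itself (HL60 minus MOLM13 on the log2 scale, edgeR quasi-likelihood test over 36 libraries, adjusted p under 0.05). Of all 19053 genes, 17.3% were higher and 10.1% lower in this difference after the combination. The shares were 5.73% and 2.65% after cytarabine, and 13.9% and 6.69% after daunorubicin. The 2 higher and 1 lower of 36 members after cytarabine were near these shares. The 5 higher after the combination did not exceed theirs. After the combination the positive differences were those of AARS1 (1.5001), WARS1 (0.88), GARS1 (0.45), YARS1 (0.42) and TARS1 (0.34). The negative ones were those of MARS2 (-1.47), VARS1 (-1.15), EARS2 (-1.06), TARS3 (-0.65), LARS1 (-0.56), TARS2 (-0.48), RARS1 (-0.40) and IARS2 (-0.40).

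After cytarabine WARS1 (0.85) and AARS1 (0.70) were positive and EARS2 (-0.55) was negative. After daunorubicin all differences past the threshold in this fit were positive, with AARS1 (1.16), FARSA (0.83), FARSB (0.75), GARS1 (0.61), YARS1 (0.52), TARS1 (0.38), HARS1 (0.37), MARS1 (0.37), KARS1 (0.35) and NARS1 (0.27) among cytosolic enzymes and LARS2 (0.56), CARS2 (0.50), NARS2 (0.48) and YARS2 (0.44) among mitochondrial ones. With the replicate block SARS1 was negative and passed (-0.30, adjusted p = 0.043). The 3 differences of one line pair share their DMSO libraries.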

How the results depend on the processing

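Of 196 calls of members, 132 were kept in every alternative, 64 were lost in 1 or more and 0 values reversed. Calls lost numbered 33 without the low-count filter, 32 with the length offset, 18 in the fit of all 36 libraries, 9 with RLE normalization, 6 with DESeq2, 4 with the stricter filter and 1 with the replicate block. The cause was not tested.

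The HL60 daunorubicin count of 10 was 17 when all libraries were fitted together, 6 without the filter, 4 under the length offset and 19 with the replicate block. The HL60 count of non-additive members, 1, was 3 when all libraries were fitted together, 0 under the length offset and 3 under the replicate block, and that of MOLM13, 19, was 11 in the fit of all libraries. The cytarabine difference between lines, 3 members, was 5 with the stricter filter, 7 with the replicate block and 5 with DESeq2, and the daunorubicin difference, 14, was 9 with RLE normalization and 5 without the filter. The MOLM13 combination count past both thresholds, 1, was 0 with the stricter filter. In OCIAML3 the counts of 0 became 1 with DESeq2 after daunorubicin, and 18 and 25 after daunorubicin and the combination without the 2 libraries that stood apart. With the length offset the cytosolic minus mitochondrial median was -0.0004 in HL60 after cytarabine (-0.07 in the report), -0.12 in MOLM13 after cytarabine (-0.10 in the report) and 0.0353 in OCIAML3 after the combination, where it was 0.0354 without the 2 libraries (0.0032 in the report). With the stricter filter it was -0.0218 in HL60 after cytarabine and turned to -0.0024 in HL60 after the combination (0.0464 in the report).

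Leaving out 1 library gave 23 to 28, 2 to 14 and 26 to 30 members in HL60, 21 to 28, 24 to 29 and 24 to 30 in MOLM13, and 0, 0 to 16 and 0 to 24 in OCIAML3 after cytarabine, daunorubicin and the combination. Past both thresholds it gave 3 and 5 to 7 in HL60 after cytarabine and the combination, and 0 to 1, 1 to 2 and 0 to 5 in MOLM13. Non-additive members numbered 0 to 1 in HL60 and 12 to 18 in MOLM13 (0 to 1 past both thresholds), and differences between lines 1 to 4, 7 to 15 (1 to 2 past both) and 10 to 12 (3 to 5 past both). DMSO differences numbered 18 to 22, 21 to 23 and 19 to 20. The class difference ranged from -0.1043 to 0.0192, -0.2073 to -0.0767 and -0.0088 to 0.0849 in HL60, from -0.1309 to -0.0687, -0.3008 to -0.2372 and -0.3016 to -0.2559 in MOLM13, and from -0.0671 to 0.001, -0.0817 to -0.0056 and -0.0473 to 0.0352 in OCIAML3.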
